A study of Homo sapiens with 12 samples.

Results

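The distal 1q genes are 51 named genes at the far end of the long arm of human chromosome 1. The list labels them as bands 1q41 to 1q44, and the bounds of those bands were not checked here. The list was drawn up as a possible dosage block and was selected on the RNA levels of these same libraries. Differences between lines in the listed genes are therefore given as a description, with no test of the list. Calls of single genes come from a test run over all tested genes and are part of that description. All 51 had a row in the deposited table of 29744 genes, and all 51 passed the filter on low counts that left 14417 genes tested. On RefSeq's GRCh38.p14 they lie in chr1:225401502-246931948, a span of 21.53 Mb that runs from LBR to AHCTF1 and holds 103 tested genes, 52 of them not listed. Among the unlisted, HNRNPU-AS1 was placed by the match to RefSeq at the same bounds as the listed HNRNPU, so its position is not its own.

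RNA was measured by sequencing of total RNA in 4 human breast cell lines of the MCF10A family, with 3 labelled biological replicates each. NeoT (MCFNeoT) is labelled benign hyperplasia, T1 (MCFT1) atypical hyperplasia, CA1 (MCFCA1) invasive cancer and A10 (MCF10A) non-tumorigenic, and the series design calls all of them triple-negative. As background, MCF10A is an immortalised mammary epithelial line, NeoT was made from it by introducing an activated HRAS gene, and T1 and CA1 were recovered from xenografts of its descendants. The labels give no genotype or treatment, and each line stands for itself: the 3 replicates of a line share their source, so the spread between them is not a spread between independently derived lines. Each of NeoT, T1 and CA1 was compared with A10. These 3 comparisons share the A10 libraries, so likeness between them is not independent evidence. T1 was also compared with NeoT and CA1 with T1.

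Gene dosage means that the amount of a gene's messenger RNA tends to follow the number of its DNA copies, more closely for some genes than for others. A change in the copies of a chromosome segment therefore acts on neighbouring genes that have no shared function, and the long arm of chromosome 1 is one of the arms most often gained in breast cancer. The genes at its distal end do unrelated work: PARP1 and EXO1 act in DNA repair, LBR and NUP133 build the nuclear envelope and its pores, ARF1 and RAB4A steer membrane traffic, TOMM20 and FH serve mitochondria, and EGLN1 marks hypoxia-inducible factors for destruction. DNA copy number was not analysed here, and its part in the values below was not tested.

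Promoters of the listed genes were set beside those of all tested genes, and 4 are printed because their genes mark the range of the results. RefSeq promoter windows of 300 bases, 250 before and 50 after the transcription start (GRCh38.p14), were matched for 48 of the 51 genes. Those of PARP1 (chr1:226408044-226408343, minus strand), TAF5L (chr1:229626073-229626372, minus strand), IRF2BP2 (chr1:234610129-234610428, minus strand) and ARV1 (chr1:230978844-230979143, plus strand) are shown 5′ to 3′. PARP1 was far lower in NeoT, T1 and CA1 than in A10, TAF5L was lower by nearly the same amount in each of them, IRF2BP2 was called in no comparison with A10, and the ARV1 window also holds the start of TTC13 on the other strand. Capitals mark letters that match any of 5 motifs on either strand: GGGCGG, the core that SP1-type factors read; CCAAT, read by the factor NF-Y; CCGGAA, the core of sites for ETS factors; GCATGCGC, the site of NRF1; and TATAAA, read by the TATA-binding protein, and overlapping copies run together.
PARP1: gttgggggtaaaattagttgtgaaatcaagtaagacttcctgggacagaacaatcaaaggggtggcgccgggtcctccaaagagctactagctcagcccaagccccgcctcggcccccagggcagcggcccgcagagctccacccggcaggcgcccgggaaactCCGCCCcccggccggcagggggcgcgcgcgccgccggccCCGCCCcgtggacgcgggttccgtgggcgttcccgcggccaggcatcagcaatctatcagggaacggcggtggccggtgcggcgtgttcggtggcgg
TAF5L: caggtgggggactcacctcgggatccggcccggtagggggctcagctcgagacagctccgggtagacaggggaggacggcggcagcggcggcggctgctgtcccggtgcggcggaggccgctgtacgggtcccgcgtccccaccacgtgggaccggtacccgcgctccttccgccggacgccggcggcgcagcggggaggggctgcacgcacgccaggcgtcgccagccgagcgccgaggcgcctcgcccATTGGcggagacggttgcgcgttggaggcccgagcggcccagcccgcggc
IRF2BP2: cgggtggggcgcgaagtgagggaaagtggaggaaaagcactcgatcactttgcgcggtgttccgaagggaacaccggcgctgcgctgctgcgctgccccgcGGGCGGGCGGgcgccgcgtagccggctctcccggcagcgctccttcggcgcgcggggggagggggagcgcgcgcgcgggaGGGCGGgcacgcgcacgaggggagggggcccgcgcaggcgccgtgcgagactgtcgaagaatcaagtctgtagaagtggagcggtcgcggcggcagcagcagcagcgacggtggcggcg
ARV1: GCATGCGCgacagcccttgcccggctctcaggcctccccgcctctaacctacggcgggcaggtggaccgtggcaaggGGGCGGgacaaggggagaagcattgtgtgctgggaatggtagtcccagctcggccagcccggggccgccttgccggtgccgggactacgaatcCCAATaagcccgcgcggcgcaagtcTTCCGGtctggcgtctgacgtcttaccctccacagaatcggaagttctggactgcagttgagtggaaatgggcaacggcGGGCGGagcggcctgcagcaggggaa

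The printed windows are rich in G and C, at 70.0% for PARP1, 77.7% for TAF5L, 74.3% for IRF2BP2 and 66.3% for ARV1. Over the 48 windows of listed genes the median was 66.7% G and C, against 65.3% over the 11072 windows of tested genes and 58.3% over all 27305 windows of the RefSeq table. GGGCGG stood in 72.9% of the listed genes' windows, 69.3% of those of tested genes and 44.6% of all windows. CCAAT was in 33.3% of the listed genes' windows, in 36.7% for tested genes and in 35.7% of all. CCGGAA gave 22.9%, 28.9% and 17.6% in the same order, GCATGCGC 10.4%, 5.36% and 3.27%, and TATAAA was in 0 of the 48 windows, 5.86% of those of tested genes and 12% of all. The 10.4% for GCATGCGC is 5 of the 48 windows. Among them those of TTC13 and ARV1 overlap, so a site they share was counted for both genes. In base content and GGGCGG the listed promoters lay near those of tested genes generally. A match is a description, not a bound site.

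Library totals ran from 18032406 to 35730423 counts. HRAS, the gene introduced into NeoT, averaged 239.5 ± 21.7 CPM in NeoT, 158 ± 11.9 in T1, 302 ± 11.9 in CA1 and 64.5 ± 4.59 in A10 (CPM are counts scaled to library sizes with TMM factors; SD, n = 3 each), above A10 in every derived line. NeoT stood apart from an epithelial label. The summed level of 10 epithelial markers was 789.8 to 912 CPM in NeoT, 7098 to 7508 in T1, 8903 to 9682 in CA1 and 5712 to 6136 in A10, and TP63 and GRHL2 had 0 counts in NeoT, as GRHL2 had in A10. Of the 10, 7 were called lower in NeoT than in A10 and 1 higher, the keratin KRT8, which averaged 473 ± 45.2 CPM in NeoT and 147 ± 13.0 in A10. Of 8 mesenchymal markers all were called higher in NeoT than in A10, and their sum was 17420 to 21020 CPM in NeoT, 193 to 204 in T1, 416.5 to 444.5 in CA1 and 1986 to 2201 in A10. The part of these marker differences in the NeoT results was not tested. Endothelial markers summed to 1.68 to 3.05 CPM in NeoT, 82.3 to 90.3 in T1, 23.7 to 25 in CA1 and 1.91 to 2.94 in A10. Of 4 leukocyte markers only CD14 had a row, at 17.6 to 97.8 CPM. Of single libraries, T1 replicate 1 had 6% of its counts on the ribosomal RNA gene RNA28S5, where the top gene of other libraries took 1.72% to 2.44%, and NeoT replicate 3 lay farthest from its own replicates in the levels of the listed genes. In bulk RNA, fewer cells of a type and less RNA per cell cannot be told apart.

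Summed over the list, the distal 1q genes were at a lower level in all 9 libraries of the derived lines than in the 3 of A10. They held 0.313%, 0.322% and 0.347% of all counts in the NeoT libraries, 0.316%, 0.342% and 0.344% in T1 and 0.316%, 0.310% and 0.309% in CA1, against 0.671%, 0.657% and 0.644% in A10. The same libraries were compared gene by gene, with each gene's log2 CPM centred on its mean over the 12 libraries. The median of the 51 centred levels was -0.19 ± 0.09 in NeoT, -0.21 ± 0.02 in T1, -0.34 ± 0.03 in CA1 and 0.69 ± 0.02 in A10 (SD, n = 3 libraries each). NeoT and T1 overlapped on this score, at -0.26 to -0.08 in NeoT and -0.23 to -0.19 in T1, and the CA1 libraries, at -0.36 to -0.30, lay below both. Over all 14417 tested genes the same median was between -0.02 and 0.03 in the mean of each line.

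**Figure D1:**
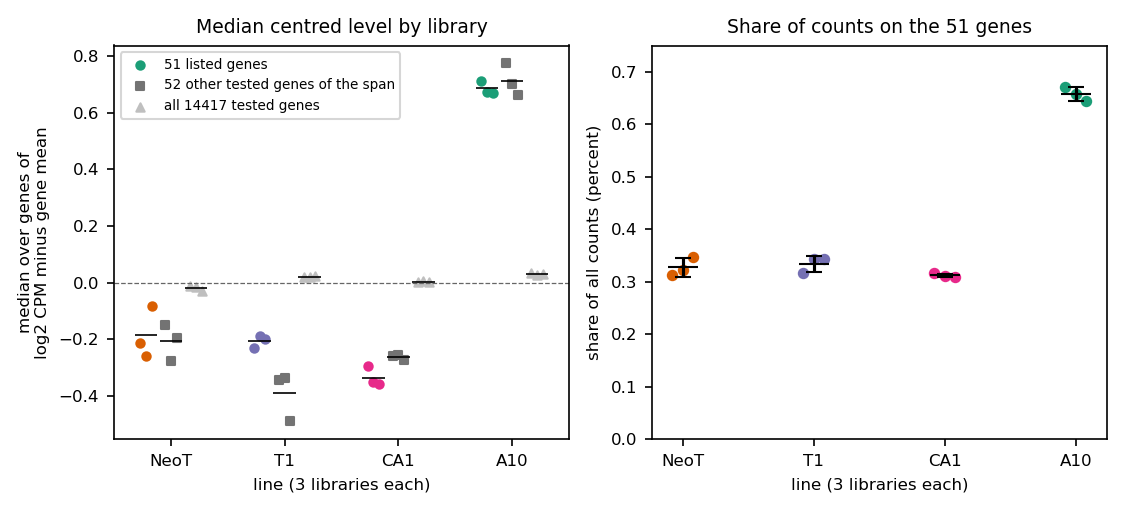
Left, the median over genes of log2 CPM minus the gene's mean over 12 libraries (vertical axis, log2 units) for NeoT, T1, CA1 and A10, with 1 point per library and a line at the mean of 3, for the 51 listed genes, the 52 other tested genes of the span and all tested genes. Right, the share of all counts on the 51 genes in percent, with mean and SD. The A10 libraries sit at 0.671%, 0.657% and 0.644%, above all 9 others, and the points of all tested genes stay near 0.

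The median listed gene in NeoT stood at 58.2% of its A10 level (log2 fold change -0.78), in T1 at 52.4% (-0.93) and in CA1 at 49.7% (-1.01). Over all tested genes the median log2 fold change was -0.04 in NeoT, -0.01 in T1 and -0.02 in CA1. Calls are those of edgeR's quasi-likelihood test at an adjusted p under 0.05, with Benjamini-Hochberg adjustment over all tested genes. In NeoT 43 of the 51 were called lower and 1 higher, where 36.7% of all tested genes were called lower and 33.7% higher. In T1 the counts were 48 lower and 0 higher, beside 25.8% and 26% of all tested genes, and in CA1 45 lower and 2 higher, beside 36.5% and 34.4%. Without NeoT replicate 3 the NeoT count was 46 lower at a median of -0.89, and without T1 replicate 1 the T1 count was 47 lower at -0.92. In NeoT a second gene, SIPA1L2, was called higher in DESeq2, in limma-voom, with upper-quartile scaling and without A10 replicate 2, which made 2. The list was selected on these levels, so nothing is read from the excess over those shares. In T1 the count of listed genes called higher was 0 also at an unadjusted p under 0.05 and in DESeq2 and limma-voom. For 36 of the 51 (70.6%) every one of the 9 derived libraries was below every A10 library, a pattern that 15.9% of all tested genes showed and 27 of the 52 unlisted genes of the span (51.9%).

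**Figure D2:**
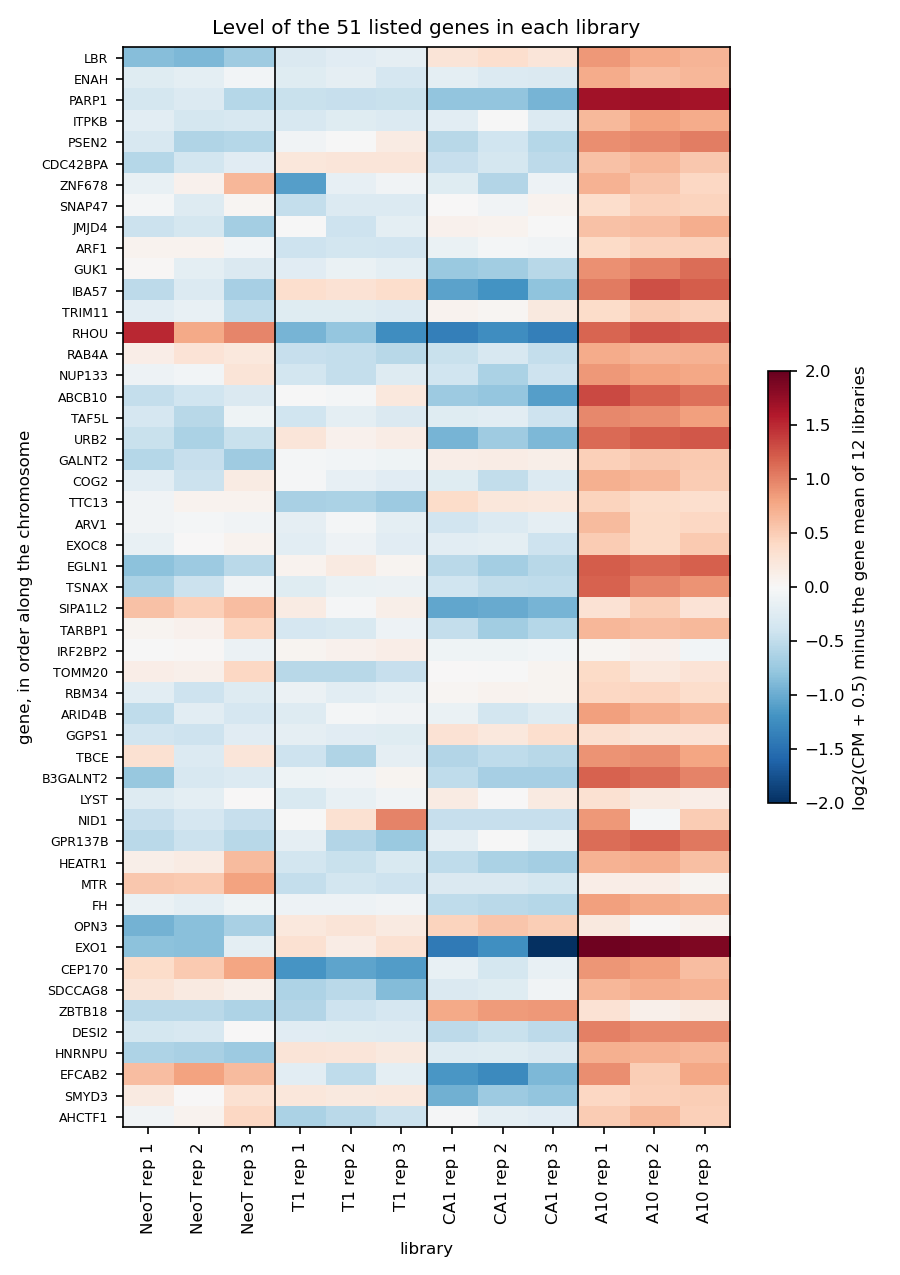
Heat map of log2(CPM + 0.5) minus the gene's mean over the 12 libraries, with the 51 genes in rows in order along the chromosome and the 12 libraries in columns by line. Red is above and blue below the gene's mean, with colours ending at 2 log2 units. The A10 columns are red in nearly every row, PARP1 and EXO1 the deepest, while IRF2BP2 is pale throughout and ZBTB18 and OPN3 are reddest in CA1.

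The list was selected on these levels, so the spread of its fold changes is given as a description. Their interquartile range on the log2 scale was 0.90 in NeoT, 0.55 in T1 and 0.99 in CA1, against 1.41, 0.77 and 1.36 over the 14268 tested genes at or above the level of the lowest listed gene. Over the 52 unlisted tested genes of the same span it was 1.44, 0.87 and 1.48, wider than either. The lowest listed gene averaged 0.235 CPM over the libraries, so the 14268 genes are not matched to the list in level. The median gene averaged 36.7 CPM in the list, 18.4 among the unlisted genes of the span and 21.1 among all tested genes. The part of level in these ranges and in the ratios below was not tested. Within the derived lines the levels differed from line to line. The ratio of the highest to the lowest derived line mean had a median of 1.61 over the 50 listed genes with counts in all of them and 1.90 over the 13676 tested genes likewise above 0, and it was under 1.5 for 23 of the 50 (46% against 28.7%). TAF5L, a subunit of a SAGA-type histone acetyltransferase complex, was the most even, at a ratio of 1.015, followed by the actin regulator ENAH at 1.06 and the inositol phosphate kinase ITPKB at 1.10.

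The comparisons between derived lines, which do not involve A10, gave medians nearer 0 and calls in both directions. In T1 against NeoT the median log2 fold change was 0.02, with 17 genes called lower and 15 higher, where 32.4% and 35% of all tested genes were called. In CA1 against T1 the median was -0.14, with 21 called lower and 16 higher, beside 31.9% and 30.4% of all tested genes. Over all tested genes the median was 0.01 in T1 against NeoT and -0.01 in CA1 against T1.

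Along chromosome 1 the lower levels were not limited to the listed genes. The 52 unlisted tested genes of the same span had a median log2 fold change of -1.06 in NeoT, -1.05 in T1 and -0.91 in CA1, so the listed genes were not the lower members of their own span in NeoT or T1. The 103 tested genes together, which are defined by position alone once the ends are given, had medians of -0.90, -1.001 and -0.99. The 526 tested genes of 1q between the centromere and the span had -0.71 in NeoT, -0.70 in T1 and -0.67 in CA1, and the 10 beyond the span -1.14, -1.08 and -1.55. On the short arm the medians of 797 genes were -0.13, 0.00 and 0.02, and over the 12394 genes placed on other chromosomes they were -0.01, 0.01 and -0.01.

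**Figure D3:**
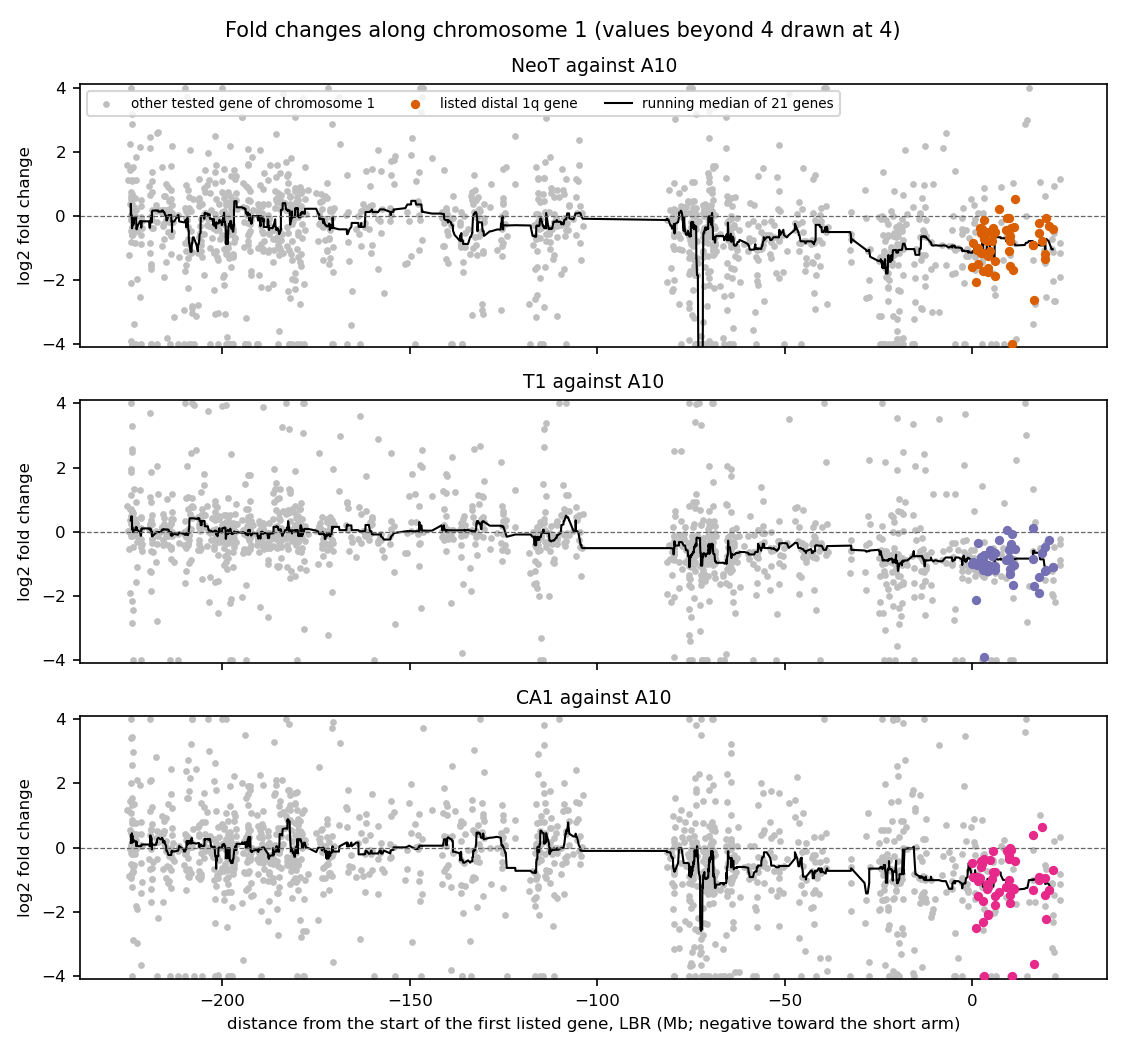
Log2 fold change of each tested gene of chromosome 1 (vertical axis, values beyond 4 drawn at 4) against distance in Mb from the start of LBR (horizontal axis, negative toward the short arm), for NeoT, T1 and CA1 against A10. Coloured points are the 51 listed genes, grey points other genes, and the line is a running median of 21 genes. Over the whole short arm the median is -0.13 in NeoT, 0.00 in T1 and 0.02 in CA1, with local departures. In NeoT the 5-Mb window from 15000001 to 20000000 has a median of -0.69. On the long arm every 10-Mb window with at least 10 tested genes has a median below 0.

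The difference between the arms was plainest in T1, whose fold changes had the narrowest interquartile range. In windows of 10 Mb that hold at least 10 tested genes, the T1 median was between -0.67 and -0.50 from 140000001 to 200000000, then -0.90 and -0.74 in the windows that start at 200000001 and 210000001, and -1.03, -0.84 and -1.08 in the 3 windows that hold the listed genes. Without the listed genes those 3 windows gave -1.002, -1.19 and -1.07. The windows of the listed genes had medians of -1.05, -0.78 and -0.91 in NeoT and -1.05, -0.91 and -1.13 in CA1. In neither were they the lowest of the arm. In NeoT the window that starts at 200000001 was at -1.35, and in CA1 the one that starts at 190000001, of 12 genes, was at -1.38. Of 268 such windows on other chromosomes, 0 were at or below the highest of the 3 in T1, 0 in CA1 and 5 in NeoT. The ranked medians include the listed genes, which were selected on these levels, so the rank is a description and not a test. With the listed genes left out, the CA1 median of the window that starts at 230000001 was -0.85, above the lowest window elsewhere (-0.90). The T1 medians without them, at -1.002 or lower, stayed below every such window elsewhere. The lowest window elsewhere in all 3 comparisons was on chromosome 8 from 110000001 to 120000000, at -1.29 in NeoT, -0.57 in T1 and -0.90 in CA1.

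**Figure D4:**
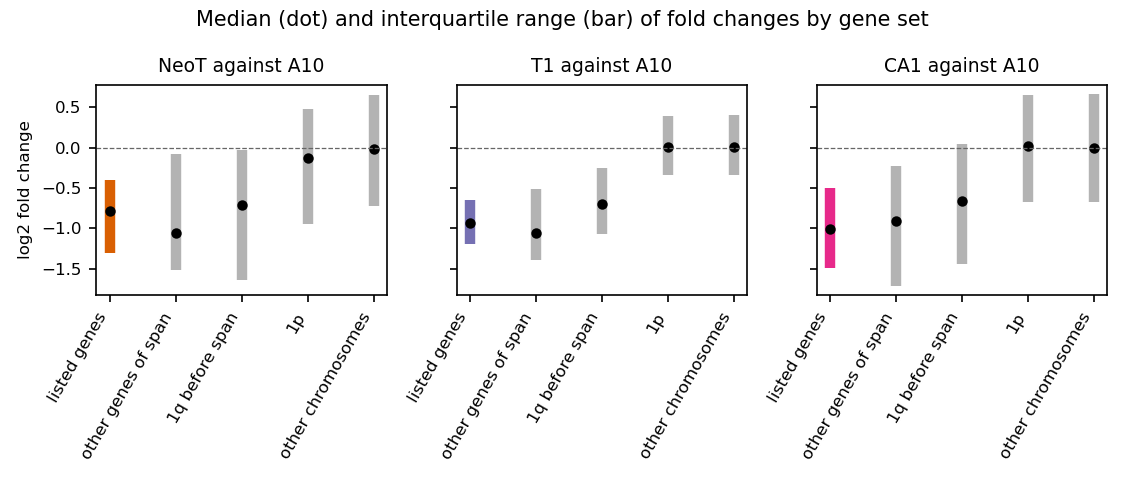
Median (dot) and interquartile range (bar) of the log2 fold changes of NeoT, T1 and CA1 against A10 for the listed genes, the other tested genes of the span, 1q between the centromere and the span, 1p and the other chromosomes. All 3 long-arm sets have medians below 0 in each panel, at -0.67 or lower, and the medians of the other chromosomes lie between -0.01 and 0.01.

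The genome upkeep pair included the lowest fold changes of the list among genes of at least 10 CPM in the higher line. PARP1, which senses DNA breaks and builds poly(ADP-ribose), was at 100.5, 106 and 86.6 CPM in the NeoT libraries, 94.5, 92.9 and 94 in T1 and 74.3, 74.2 and 67.4 in CA1, against 412, 417 and 406 in A10. Its log2 fold change was -2.07 ± 0.07 in NeoT, -2.13 ± 0.07 in T1 and -2.52 ± 0.07 in CA1 (± standard error of the fit). Every derived library was far below every A10 library, and NeoT and T1 overlapped. EXO1, an exonuclease of mismatch repair and recombination, was at 4.84, 4.79 and 7.78 CPM in NeoT, 11.2, 9.94 and 11.2 in T1 and 3.04, 3.54 and 1.89 in CA1, against 36, 35.2 and 33.9 in A10. Its fold changes were -2.61 ± 0.18, -1.70 ± 0.17 and -3.64 ± 0.20, and unlike PARP1 it separated the derived lines, highest in T1 and lowest in CA1. EXO1 is a gene of replicating cells, and 24 genes of S phase and mitosis summed to 698 to 743 CPM in NeoT, 1352 to 1377 in T1, 901 to 912 in CA1 and 2494 to 2560 in A10. All 24 were called lower in NeoT and in CA1 than in A10, and 23 in T1. None of them is on the list. Their part in the levels of PARP1 and EXO1 was not tested.

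Genes of the nuclear envelope, the nuclear pore and chromatin were mostly at intermediate values. Of 11, 9 were called lower in NeoT, 10 in T1 and 9 in CA1, where 1 was called higher, with medians of -0.78, -0.87 and -0.95. Beside this and the role groups below, 84.3% of the whole list was called lower in NeoT, 94.1% in T1 and 88.2% in CA1. Over all tested genes the shares called lower were 36.7%, 25.8% and 36.5%. Each group is part of a list selected on these levels, so its count is not read as a result about its function. TAF5L was at 21.9, 18.8 and 26.1 CPM in NeoT, 20.8, 24.3 and 22.6 in T1 and 23.3, 23.9 and 20.6 in CA1, against 54.7, 53.4 and 49.6 in A10, with log2 fold changes of -1.25 ± 0.11, -1.22 ± 0.11 and -1.22 ± 0.11. All 9 derived libraries were below A10 and the derived lines overlapped one another. LBR, the lamin B receptor of the inner nuclear membrane, did not follow that pattern, at 32.5, 31.5 and 35.9 CPM in NeoT, 48.4, 50.4 and 52 in T1 and 70.8, 74.6 and 69.5 in CA1, against 108, 98.5 and 95.1 in A10. The lines fell into a strict order with no overlap between neighbours, NeoT lowest and A10 highest. NUP133, of the scaffold of the nuclear pore, had log2 fold changes of -0.78 ± 0.09 in NeoT, -1.19 ± 0.09 in T1 and -1.30 ± 0.10 in CA1, and AHCTF1, which seeds pores on chromatin after mitosis, had -0.39 ± 0.10, -1.08 ± 0.10 and -0.69 ± 0.10. ARID4B, of the Sin3 corepressor, lay at the median of the list in CA1, with 27.9, 23.6 and 25.5 CPM in CA1 against 54.9, 50.9 and 48.8 in A10. It overlaps GGPS1 on the other strand by 964 bases, and reads of overlapping genes cannot be told apart without strand, whose use in the counting is not given in the sources used here.

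HNRNPU, an abundant RNA-binding protein that organises chromatin, was at 232, 227 and 215 CPM in NeoT, 427, 422 and 407 in T1 and 297, 302 and 292 in CA1, against 580.1, 578 and 568 in A10, again with no overlap between lines. SMYD3, a lysine methyltransferase, was at 22.7, 20.1 and 24.8 CPM in NeoT, 23.5, 22.9 and 23.2 in T1 and 10, 11.9 and 11.4 in CA1, against 26.8, 28 and 28.4 in A10. Its log2 fold change was -0.30 ± 0.10 in NeoT and -0.26 ± 0.10 in T1, a call lost with any of 5 libraries left out, and -1.31 ± 0.11 in CA1, where the level was clear of the other lines. Among the smaller chromatin and transcription genes, ZNF678, a zinc finger gene, had under 8 CPM in every library and a standard error of 0.27 to 0.28, so its fold changes of -0.36 ± 0.27, -1.04 ± 0.28 and -0.95 ± 0.28 are loosely fixed. JMJD4, a JmjC-type hydroxylase, had -1.14 ± 0.12, -0.85 ± 0.12 and -0.60 ± 0.12. The whole JMJD4 gene lies inside SNAP47 on the other strand, so the same limit on overlapping genes holds for its values.

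A pair of transcriptional repressors differed from the rest of the group. IRF2BP2, a corepressor partner of IRF2, was at 159, 162 and 148 CPM in NeoT, 167, 169 and 176 in T1 and 151.3, 150.3 and 153.5 in CA1, against 164, 169.4 and 154.1 in A10. Its log2 fold changes were -0.06 ± 0.06, 0.07 ± 0.06 and -0.10 ± 0.06, with no call in any comparison with A10. The NeoT and T1 libraries overlapped those of A10, and the 3 CA1 libraries lay just below all 3 of A10. ZBTB18, a zinc finger repressor, was at 11.6, 11.7 and 10.9 CPM in NeoT, 11.2, 12.7 and 13.4 in T1 and 29.4, 31.3 and 31.8 in CA1, against 21.1, 18.3 and 19.2 in A10. CA1 was above A10 and NeoT and T1 below it, with log2 fold changes of 0.66 ± 0.10 in CA1, -0.78 ± 0.11 in NeoT and -0.65 ± 0.10 in T1.

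**Figure D5:**
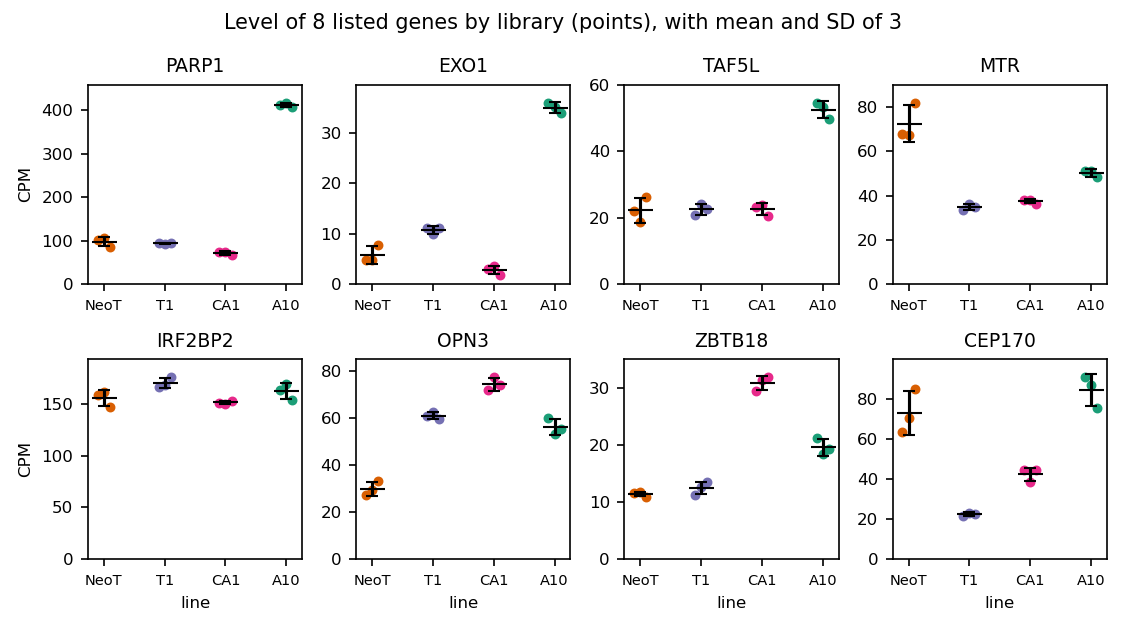
Level in CPM (vertical axis) of PARP1, EXO1, TAF5L, MTR, IRF2BP2, OPN3, ZBTB18 and CEP170 in each library of NeoT, T1, CA1 and A10 (horizontal axis), with 1 point per library and the mean and SD of 3. These 8 were picked after their values were seen. PARP1, EXO1 and TAF5L are highest in A10, MTR in NeoT, and OPN3 and ZBTB18 in CA1, while CEP170 is lowest in T1.

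The 5 genes of the nucleolus and of RNA were called lower in every comparison with A10, with medians of -0.69 in NeoT, -1.05 in T1 and -1.28 in CA1. URB2, needed for making the large ribosomal subunit, was at 18, 15.8 and 18.1 CPM in NeoT, 29.5, 26.4 and 27.7 in T1 and 12.8, 15 and 13.1 in CA1, against 55.3, 57.9 and 59.3 in A10. Its log2 fold changes of -1.74 ± 0.10, -1.05 ± 0.09 and -2.07 ± 0.10 put it among the lowest of the list in NeoT, and the lines did not overlap. HEATR1, which serves ribosomal RNA transcription and processing, was at 125, 128 and 178 CPM in NeoT, 89.5, 84.7 and 92.8 in T1 and 80.5, 74.2 and 72 in CA1, against 187, 190.1 and 175 in A10. Its NeoT replicate 3 lay inside the A10 range and the other 8 derived libraries below it. The RNA methyltransferase TARBP1 had log2 fold changes of -0.45 ± 0.10, -0.89 ± 0.10 and -1.23 ± 0.10, TSNAX, the partner of translin, -1.41 ± 0.12, -1.20 ± 0.12 and -1.51 ± 0.12, and the RNA-binding RBM34 -0.69 ± 0.08, -0.56 ± 0.07 and -0.35 ± 0.07.

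Membrane traffic genes were called lower nearly throughout, as was most of the list. Of 8, 8 were called lower in NeoT, 8 in T1 and 7 in CA1, with medians of -0.51, -0.77 and -0.77. GPR137B, a lysosomal membrane protein, was the lowest of them in each, at 9.33, 10.2 and 9.23 CPM in NeoT, 12.1, 8.99 and 8.1 in T1 and 12.2, 13.7 and 12.6 in CA1, against 30.7, 31.8 and 29.4 in A10. Its log2 fold changes were -1.67 ± 0.13, -1.65 ± 0.13 and -1.26 ± 0.13, and no derived library reached the A10 range. ARF1, the GTPase that recruits coats to the Golgi, was at 556, 557 and 512 CPM in NeoT, 399, 413 and 407 in T1 and 486, 516 and 505 in CA1, against 696, 734 and 733 in A10. RAB4A, of recycling endosomes, had log2 fold changes of -0.50 ± 0.07 in NeoT, -1.21 ± 0.07 in T1 and -1.12 ± 0.07 in CA1, with the NeoT libraries between the others and A10. LYST, which controls lysosome size, was at 36.8, 32.9 and 36.9 CPM in CA1 against 40.3, 37.1 and 35.9 in A10, overlapping, for a log2 fold change of -0.09 ± 0.10 with no call. The exocyst subunit EXOC8 and the Golgi tether subunit COG2 had fold changes between -0.98 and -0.50, and those of the endoplasmic reticulum lipid gene ARV1 were -0.55 ± 0.09, -0.63 ± 0.09 and -0.78 ± 0.09. SNAP47, a SNARE protein whose gene overlaps JMJD4 by 4112 bases, the whole of JMJD4, had -0.52 ± 0.09, -0.78 ± 0.09 and -0.43 ± 0.09.

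Genes of the cytoskeleton and the cilium were unevenly placed between the derived lines. Of 8, 4 were called lower in NeoT, 8 in T1 and 8 in CA1, with medians of -0.37, -1.25 and -1.22. CEP170, of the appendages of the mother centriole, was at 63.3, 70.1 and 84.7 CPM in NeoT, 21.2, 23.2 and 22.4 in T1 and 44.1, 38.2 and 44.2 in CA1, against 90.5, 86.8 and 75.5 in A10. NeoT overlapped A10, CA1 was between, and T1 was lowest, with log2 fold changes of -0.22 ± 0.10 in NeoT, -1.92 ± 0.11 in T1 and -0.9995 ± 0.10 in CA1. SDCCAG8, a centrosome and cilium gene whose start lies 760 bases from that of CEP170 on the other strand, had the same order, at 20.3, 19.1 and 18.2 CPM in NeoT, 10.8, 11.5 and 9.08 in T1 and 13.7, 14.2 and 16.1 in CA1, against 27.1, 28.4 and 27.9 in A10. ENAH, at the median of the list in T1, was at 119.8, 124 and 136 CPM in NeoT, 120.4, 125 and 112 in T1 and 124, 118 and 116 in CA1, against 238, 217 and 226 in A10. The derived lines overlapped one another there and A10 stood clear.

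SIPA1L2, a Rap GTPase-activating protein, was at 33.7, 31.1 and 34.4 CPM in NeoT, 25.2, 22 and 24.1 in T1 and 10.5, 10.8 and 11.4 in CA1, against 27.5, 31.4 and 27.1 in A10. The CA1 libraries were far below all others, with a log2 fold change of -1.39 ± 0.10 against 0.20 ± 0.09 in NeoT and -0.27 ± 0.09 in T1, where the call was lost without A10 replicate 2 or T1 replicate 2. TBCE, a tubulin folding factor near the list's median in NeoT, was at 22.1, 14.6 and 21.1 CPM in NeoT, 13.2, 11.5 and 15.6 in T1 and 11.7, 12.3 and 11.9 in CA1, against 33.5, 34.3 and 31.3 in A10, and it overlaps B3GALNT2 on the other strand by 12648 bases. CDC42BPA, a kinase acting below CDC42, was at its highest derived level in T1 (-0.35 ± 0.08, against -0.99 ± 0.08 in NeoT and -1.05 ± 0.08 in CA1). Few counts fell on RHOU, a small GTPase, with 3.14, 1.68 and 2.03 CPM in NeoT, 0.178, 0.253 and 0.0409 in T1 and 1 count in all in CA1, against 2.39, 2.62 and 2.53 in A10. With 1 count in CA1 and 229 in A10, the ratio of A10 to CA1 was 161, with an exact 95% counting interval of 28.7 to 6402. EFCAB2, of the axonemal dynein regulators, had under 7 CPM throughout and fold changes of -0.07 ± 0.22, -1.20 ± 0.23 and -2.24 ± 0.25.

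Among genes of mitochondria and metabolism, 5 of 7 were called lower in NeoT, 7 in T1 and 6 in CA1, with medians of -0.90, -0.86 and -1.31. IBA57, which assembles iron-sulphur clusters, was at 6.76, 8.11 and 6.09 CPM in NeoT, 12.7, 12.2 and 12.8 in T1 and 4.45, 4.06 and 5.45 in CA1, against 21, 25 and 23.7 in A10. ABCB10, a transporter of the inner membrane linked to haem synthesis, was at 22.3, 23.6 and 25.3 CPM in NeoT, 31, 30.5 and 36.4 in T1 and 18.6, 18 and 14.3 in CA1, against 78.3, 71.1 and 67.8 in A10. Both had T1 as the highest derived line and CA1 as the lowest, without overlap between T1 and CA1, at log2 fold changes in CA1 of -2.31 ± 0.15 for IBA57 and -2.10 ± 0.11 for ABCB10. FH, the fumarate hydratase of the citric acid cycle, had -0.90 ± 0.06, -0.86 ± 0.06 and -1.31 ± 0.06, and GUK1, which phosphorylates GMP, -1.16 ± 0.08, -1.20 ± 0.08 and -1.68 ± 0.08.

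The remaining metabolic genes include exceptions. MTR, methionine synthase, was the 1 listed gene called higher in NeoT, at 67.9, 67.5 and 81.9 CPM in NeoT, 33.3, 36.2 and 34.7 in T1 and 37.9, 38 and 36.3 in CA1, against 51.1, 51.1 and 48.2 in A10. All NeoT libraries were above and all T1 and CA1 libraries below A10, with log2 fold changes of 0.53 ± 0.08, -0.53 ± 0.08 and -0.42 ± 0.08. TOMM20, an import receptor of the outer membrane, was at 449, 439 and 546 CPM in NeoT, 279, 278 and 295 in T1 and 409, 406 and 424 in CA1, against 529.9, 471 and 493 in A10. NeoT overlapped A10 and T1 was lowest. GGPS1, which makes geranylgeranyl diphosphate for protein prenylation, was at 25.2, 24.9 and 28.3 CPM in NeoT, 29.2, 28.2 and 28.1 in T1 and 40.5, 38.5 and 42.1 in CA1, against 41.6, 39.9 and 40.1 in A10. Its CA1 and A10 libraries overlapped, and the sign of its CA1 fold change of -0.0055 ± 0.08 turned under some settings.

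Of the glycosylation and matrix genes, 3 of 3 were called lower in NeoT, 2 in T1 and 3 in CA1. GALNT2, which starts mucin-type O-glycans, was at 155, 166 and 141 CPM in NeoT, 224, 220.3 and 217 in T1 and 252, 255 and 249 in CA1, against 319, 336 and 329.5 in A10, a strict order from NeoT up to A10. B3GALNT2, which glycosylates alpha-dystroglycan, had log2 fold changes of -1.56 ± 0.11, -1.15 ± 0.11 and -1.73 ± 0.11. NID1, the basement membrane protein nidogen, had under 1 CPM in every library, at 0.178, 0.348 and 0.859 in T1 against 0.754, 0.164 and 0.47 in A10, which overlapped. With 0 counts in CA1 and 47 in A10 it was at least 11.04-fold lower in CA1, taking 3 counts over the line as the floor, and with 1 count in NeoT the ratio of A10 to NeoT was 32.4 (exact 95% counting interval 5.54 to 1306). The medians of the list were the same with such genes taken at their bounds.

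Signalling and protein turnover genes had 7 of 7 called lower in NeoT, 6 in T1 and 5 in CA1, and 1 called higher in CA1, with medians of -1.05, -1.03 and -0.91. EGLN1, the prolyl hydroxylase that senses oxygen for hypoxia-inducible factors, was at 33.3, 35.3 and 40.7 CPM in NeoT, 62.2, 66.6 and 61.7 in T1 and 40.7, 36.9 and 40.1 in CA1, against 137, 130.2 and 136 in A10. Its log2 fold changes were -1.89 ± 0.08, -1.08 ± 0.08 and -1.78 ± 0.08, with T1 clear of the other derived lines. PSEN2, a catalytic subunit of gamma-secretase, was near the list's median in T1, at 19.3, 20.2 and 22.6 CPM in T1 against 39.2, 39.9 and 41.6 in A10. OPN3, an opsin found outside the eye, was at 27, 29.3 and 33.1 CPM in NeoT, 60.7, 62.7 and 59.5 in T1 and 71.8, 77.2 and 74.1 in CA1, against 60, 53.1 and 55.3 in A10. NeoT was below A10 and CA1 above it, with log2 fold changes of -0.92 ± 0.08 and 0.40 ± 0.08, and the T1 value was 0.12 ± 0.08. ITPKB had -1.05 ± 0.09, -1.03 ± 0.09 and -0.91 ± 0.09, the isopeptidase DESI2 -1.20 ± 0.08, -1.22 ± 0.08 and -1.48 ± 0.08, and the ubiquitin ligase TRIM11 -0.73 ± 0.09, -0.71 ± 0.09 and -0.35 ± 0.09.

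Within the span, neighbours that start back to back offered a comparison at close range, chosen after the values were seen. TTC13 and ARV1 start 233 bases apart on opposite strands, inside the ARV1 window printed above. TTC13 was at 29.8, 32.7 and 32.9 CPM in NeoT, 19.7, 20 and 18.7 in T1 and 40.5, 36.5 and 36 in CA1, against 42.5, 40.2 and 39.7 in A10. ARV1 was at 27.6, 28.2 and 27.6 CPM in NeoT, 25.6, 28.1 and 25.2 in T1 and 22, 23.8 and 25.5 in CA1, against 45.2, 37.9 and 38.9 in A10. TTC13 was lowest in T1 and near A10 in CA1, while ARV1 differed little between the derived lines. TAF5L and URB2 start 125 bases apart, and here TAF5L was even across NeoT, T1 and CA1 (log2 fold changes of -1.25, -1.22 and -1.22) and URB2 was not (-1.74, -1.05 and -2.07). CEP170 and SDCCAG8 instead kept a common order of the lines, at -0.22 and -0.53 in NeoT, -1.92 and -1.41 in T1 and -0.9995 and -0.92 in CA1.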

How the data were processed

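Total RNA, treated with DNase I per the labels' protocols, was made into libraries with an NEBNext Ultra kit. The authors' deposited table holds expected counts (estimated counts) for each gene and each of 12 libraries. Its name gives Salmon as the tool, and the values are not scaled. The submitters' processing notes name GRCh38 and limma with no role. Annotation and versions are not given in the sources used here.

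Of the values, 10.1% were not whole, and all were rounded. Positions were matched to RefSeq (GRCh38.p14), for 50 listed genes by symbol and for EFCAB2 by synonym. After edgeR's filterByExpr on the line, TMM scaling and a robust quasi-likelihood fit with a mean per line (edgeR 4.0.16, R 4.3.3) took all 12 libraries, with a two-sided threshold of Benjamini-Hochberg adjusted p under 0.05. Scripts were tested on simulated data. Standard errors are the log2 fold change over the root of the F statistic. CPM are not divided by gene length, so they compare lines, not genes.

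The listed genes, marker lists, role groups and tests were chosen with earlier results of these data known. Libraries are shown for the 4 highest, the 4 lowest and the 2 nearest the median in each comparison with A10 at 10 CPM or more, plus others by role. Alternatives tried were scaling by RLE or upper quartile, TMM without chromosome 1, other filters, DESeq2 1.42.0, limma-voom 3.58.1, only the compared lines, a replicate block, windows of 5 Mb and each library left out. After the data were seen, fits without 4 ribosomal RNA rows and without T1 replicate 1 and NeoT replicate 3 were added. Intervals cover counting error only. Of the unlisted genes among the 3 highest or 3 lowest of the span, 2 are not reported here.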

Additional observations from a re-analysis of the deposited data

How the results depend on the processing

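The medians of the listed genes in NeoT, T1 and CA1 against A10 stayed below 0 under every alternative run, at -0.88 to -0.75, -0.95 to -0.89 and -1.04 to -0.997 under settings other than a left-out single library. Among the counts of called genes, 97 of 100 stayed within 1.5 times the reported count. The other 3 were the listed genes called higher in NeoT, 2 under upper-quartile scaling, DESeq2 and limma-voom, with SIPA1L2 as the added gene. The NeoT median was -0.88 without T1 replicate 1 and NeoT replicate 3 together, and the T1 median was -0.89 over genes of at least 10 CPM. In windows of 5 Mb the CA1 medians of the windows holding listed genes ran from -1.23 to -0.81.

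With each library left out in turn, the medians ran from -0.89 to -0.78 in NeoT, -0.97 to -0.92 in T1, -1.07 to -0.96 in CA1 and -0.17 to -0.10 in CA1 against T1, and 1 to 2 genes were called higher in NeoT. In T1 against NeoT the median took both signs, at -0.03 to 0.06 with a library left out. Under the other settings it ran from -0.04 to 0.06. The T1 call of SMYD3 was lost without any of A10 replicates 2 and 3 and T1 replicates 1, 2 and 3, and that of SIPA1L2 without A10 replicate 2 or T1 replicate 2. SIPA1L2 was called in NeoT without A10 replicate 2, and TOMM20 without NeoT replicate 3 (-0.17). The CA1 fold change of GGPS1, -0.0055 as reported and -0.038 to 0.029 with each library left out, was 0.0021 with RLE scaling, 0.0025 with the filter at 1 CPM, 0.0017 in DESeq2, and also above 0 without A10 replicate 1 (0.013) or CA1 replicate 2. The cause of these changes was not tested.

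Replicate numbers did not pair the libraries: of 18 same-numbered pairs across lines, 0 deviations correlated above 0.1 (range -0.07 to 0.09). With the replicate number as a block, 43, 47 and 45 listed genes were called lower in NeoT, T1 and CA1, at medians of -0.79, -0.93 and -1.01, and the T1 call of SMYD3 was lost. Depth limits the values of RHOU, NID1, ZNF678 and EFCAB2.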

Other observations

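The unlisted genes of the same span include the widest departures from the level of their neighbours. The genes described here are from the 3 highest and the 3 lowest unlisted genes in each comparison with A10 at 10 CPM or more in the higher line. PGBD5, a gene derived from a piggyBac transposase, averaged 0.532 ± 0.446 CPM in NeoT and 20.7 ± 1.07 CPM in A10 (SD, n = 3 libraries each) and had 0 counts in T1 and CA1. EDARADD, an adaptor of the ectodysplasin receptor, averaged 0.0867 ± 0.0751 CPM in NeoT, 0.0857 ± 0.119 in T1, 0.0655 ± 0.0585 in CA1 and 11.6 ± 2.31 in A10. GNG4, a G protein gamma subunit, averaged 5.13 ± 0.407 CPM in NeoT, 0.214 ± 0.0619 in T1, 0.146 ± 0.08 in CA1 and 11.9 ± 0.441 in A10. These 3 were near absence in T1 and CA1, far past the median of the listed genes. PLD5 averaged 1.76 ± 0.558 CPM in NeoT, 14.3 ± 0.278 in T1, 3.65 ± 0.658 in CA1 and 11.7 ± 1.09 in A10.

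Other unlisted genes averaged more than in A10 in at least 1 line. CHRM3, a muscarinic acetylcholine receptor, averaged 5.74 ± 0.829 CPM in NeoT, 14.4 ± 0.188 in T1, 9.57 ± 1.42 in CA1 and 0.805 ± 0.321 in A10. It was above A10 in all 3 derived lines, unlike every listed gene. RYR2, a calcium release channel, averaged 0.212 ± 0.185 CPM in NeoT, 14.3 ± 1.07 in T1, 0.875 ± 0.201 in CA1 and 3.02 ± 0.927 in A10, and WNT9A, a Wnt ligand, 1.65 ± 0.891, 12.2 ± 3.43, 8.29 ± 0.334 and 4.54 ± 0.488 CPM in the same order. ERO1LB, an oxidase of the endoplasmic reticulum, averaged 22.6 ± 4.39 CPM in NeoT, 2.58 ± 0.119 in T1, 6.93 ± 1.02 in CA1 and 10.9 ± 0.573 in A10, and PCNXL2 45.9 ± 3.97, 15.0 ± 2.29, 24.9 ± 1.78 and 24.3 ± 2.39 CPM in that order. TMEM63A averaged 28.4 ± 1.73 CPM in NeoT, 50.8 ± 4.25 in T1, 61.0 ± 2.21 in CA1 and 32.8 ± 2.92 in A10.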
